A study of Mus musculus with 30 samples.

Results

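A naive embryonic stem cell line of the mouse, without Kmt2c and with GRHL2-ERT, was compared after 8 h of tamoxifen and after 8 h of ethanol, the solvent control. The libraries were chosen by line, treatment and time as the labels give them, without use of any measured value: 3 received tamoxifen and 3 received ethanol, which is 6 of the 30 libraries of the series. The response was read across all 12428 genes of the deposited table. The cells came from a C57BL/6J x 129 background, and the genotype label of both groups reads Kmt2cKO, Kmtd fl/fl and GRHL2-ERT, so the ethanol cells carried the Kmt2c knockout, the floxed alleles (taken here as Kmt2d) and the transgene as well. Both grew in medium with serum and LIF to which inhibitors of MEK and of GSK3 were added. A clone of this line was selected for GRHL2 expression similar to that of a double-knockout clone, so 1 selected line stands for the genotype, and the labels name no Cre and no promoter for the transgene. For comparison, 3 libraries of Kmt2cKO, Kmtd fl/fl cells without GRHL2-ERT had received tamoxifen for 8 h, 6 libraries of the GRHL2-ERT line had received ethanol or tamoxifen for 16 h, and 6 libraries of a Kmt2cKO, Kmt2dKO line with GRHL2-ERT had received ethanol or tamoxifen for 8 h. No ethanol library of cells without the transgene and no cells with intact Kmt2c were analysed here. The comparison asks what 8 h of tamoxifen, given to bring GRHL2 into the nucleus, changes in cells whose label gives floxed alleles and no Kmt2d knockout. Within it, tamoxifen itself and nuclear GRHL2 cannot be told apart.

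GRHL2 is a transcription factor of the grainyhead family that binds enhancers and promoters of epithelial genes, among them genes of tight junctions, desmosomes and apical membrane traffic, and is known for holding back the epithelial-to-mesenchymal transition. In GRHL2-ERT the factor is fused to the ligand-binding domain of the estrogen receptor, which keeps the protein in the cytoplasm until tamoxifen binds, so the transgene RNA is present in both treatments. KMT2C and KMT2D are large histone methyltransferases that place the monomethyl mark of lysine 4 on histone H3 at enhancers. Naive embryonic stem cells express genes of simple epithelia, such as E-cadherin, next to the factors of the naive pluripotency network.

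Levels were 3' tags scaled to a common total (CPM), in which each transcript gives tags near its 3' end. The 6 libraries held 12.3 to 21.7 M recovered reads over the genes of the table, and 3 reads in 1 library stood for 0.138 to 0.243 CPM. These floors cover counting error only. Whether the numbered replicates were grown as separate cultures is not given in the labels, so a p measures only the spread between these libraries, which may be technical. In bulk libraries fewer cells of a type and less RNA per cell cannot be told apart. All 13 naive embryonic stem cell markers were measured and summed to 8684 to 10371 CPM per ethanol library and 9453 to 10770 CPM per tamoxifen library, and 4 of the 13 (Sox2, Zfp42, Klf4 and Utf1) fell. Defining markers of other cell types the cultures could hold summed to at most 5.77 CPM for primitive endoderm (5 markers), 1.53 CPM for the Zscan4-positive state (3 markers), 2.44 CPM for feeder fibroblasts (3 markers), 10.96 CPM for mesoderm (3 markers), 15.4 CPM for neuroectoderm (4 markers) and 26.9 CPM for trophoblast (3 markers) in any of the 6 libraries, and 0 of these other markers rose or fell. Rn45s, the ribosomal RNA precursor, took 5.39%, 4.02% and 7.40% of the tags in the ethanol libraries of replicates 1 to 3 and 3.47%, 3.10% and 3.29% in the tamoxifen libraries, so the groups did not overlap. Without GRHL2-ERT, tamoxifen libraries had 3.24% to 3.74%. Rn45s was lower with tamoxifen (log2 fold change -0.73 ± 0.21 SE; limma, Benjamini-Hochberg adjusted p = 0.039), a call lost with median-of-ratios scaling. With the Rn45s level as a covariate, an alternative added after seeing the data, 446 genes were called for the response described below, 273 of them among its 615. The 3 tamoxifen libraries of the double-knockout line at 8 h stood apart, with mean correlations of 0.938 to 0.965 within their group.

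Grhl2 tags checked the label of the transgene. They stood at 210, 158 and 165 CPM in the ethanol libraries of replicates 1 to 3 and at 162, 159 and 189 CPM in the tamoxifen libraries, which overlap. Cells without GRHL2-ERT had 1.90, 3.55 and 2.53 CPM, below every library of the transgenic line. Esr1, the estrogen receptor gene, had 15.5, 51.9 and 26.2 CPM with ethanol and 56.8, 62.8 and 41.0 CPM with tamoxifen, against 3.15 to 3.85 CPM without the transgene. The Esr1 treatment groups overlap (log2 fold change 0.90 ± 0.47; limma adjusted p = 0.32). Kmt2c had 16.9 to 24.1 CPM with ethanol and 21.7 to 32.8 CPM with tamoxifen (adjusted p = 0.13, limma). Kmt2d had 15.2 to 23.4 CPM with ethanol and 9.88 to 14.2 CPM with tamoxifen, groups that do not overlap but did not pass the test (-0.61 ± 0.23; limma adjusted p = 0.14). Without the transgene, tamoxifen libraries had 7.70 to 13.6 CPM of Kmt2d. The deleted part of Kmt2c is not given in the sources used here, and a 3' tag outside it checks no knockout.

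With tamoxifen, some genes of epithelial junctions, apical membrane traffic and the cytoskeleton rose, and some genes of pluripotency and DNA methylation fell. Of 12414 genes tested, 615 (4.95%) passed at a limma adjusted p under 0.05, of which 362 (2.92%) rose and 253 (2.04%) fell. The increases were the larger changes: 154 genes (1.24%) rose by at least 1 on the log2 scale and 50 (0.403%) fell by as much. The genes that rose began at a median of 7.21 CPM in ethanol, and 58 of the 362 began under 1 CPM, whereas the genes that fell began at a median of 26.9 CPM and 0 began under 1 CPM. Over all tested genes the ethanol median was 12.4 CPM and the median log2 fold change was 0.03. Without the tamoxifen library of replicate 2 the count fell to 320 genes, 199 higher and 121 lower, of which 315 were among the 615. It rose to 1355, with all 615 among them, without the double-knockout tamoxifen libraries at 8 h, a fit added after seeing the data. Those libraries entered only through the shared spread and the filter, so some genes said here not to pass were called in that fit. Fold changes are on the scale of log2(CPM + 1), which understates the change of genes near 0. On this scale a gene under 1 CPM cannot fall by as much as 1, whereas a rise has no such limit. The differences in size and starting level between rises and falls are thus partly fixed by the scale. Over all tested genes, 13.0% had every tamoxifen library above every ethanol library, and 11.4% had every one below. Genes that the naming rule picked as largest changes or list members had to have groups that do not overlap. Their separation is therefore no further result. The shares of 2.92% that rose and 2.04% that fell are those to set beside the list counts below. The lists were chosen with earlier results of these data known, so their counts describe the response and are no independent support.

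**Figure D1:**
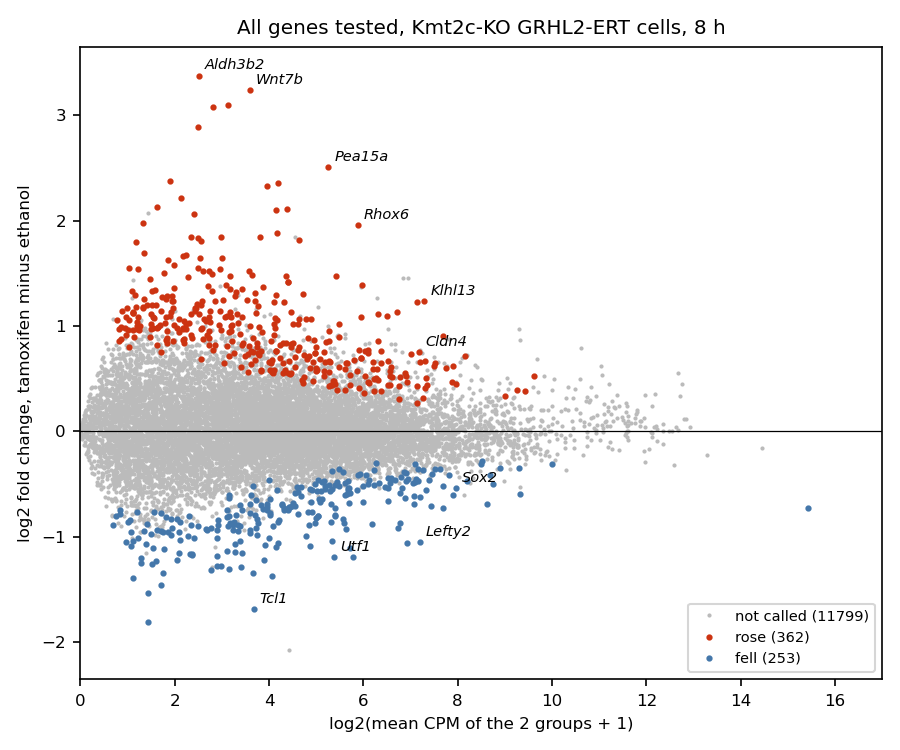
Log2 fold change between tamoxifen and ethanol libraries (vertical axis, log2 units) against mean level (horizontal axis, log2 of CPM + 1) for the 12414 genes tested, 1 point per gene. The 362 genes that rose (red) reach a log2 fold change of 3.38 and lie at lower levels than the 253 genes that fell (blue), which are also called at smaller changes. The blue point at far right is Rn45s.

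The largest increase was that of Aldh3b2 (mm10 chromosome 19, 3972328 to 3981646, plus strand), which encodes an aldehyde dehydrogenase. It had 0 reads in all 3 ethanol libraries and 0 CPM in the 3 libraries without GRHL2-ERT, and 8.96, 10.5 and 8.77 CPM in the tamoxifen libraries of replicates 1 to 3. Against a floor of 3 reads over the ethanol group, the tamoxifen level was at least 46.6-fold higher. The fitted log2 fold change was 3.38 ± 0.20 (limma adjusted p = 3.5e-12), a value that depends on the pseudocount and is no bound. Upk2, a uroplakin of the urothelial membrane, had 1 read in the ethanol libraries together and 164 in the tamoxifen libraries, a ratio of 135 with a 95% counting interval of 24.0 to 5384.

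Wnt7b (chromosome 15, 85535437 to 85582473, minus strand), a secreted WNT ligand, had 1.13, 1.22 and 1.54 CPM with ethanol and 20.2, 17.6 and 24.6 CPM with tamoxifen. Cells without the transgene had 0.807 to 1.85 CPM of it, so only the tamoxifen libraries of the GRHL2-ERT line were high among these 9. Its log2 fold change was 3.24 ± 0.24 (limma adjusted p = 4.3e-10). Pea15a, a small adaptor of MAP kinase and death-receptor signalling, went from 9.99, 10.96 and 10.1 CPM to 55.9, 59.8 and 76.9 CPM. Among the largest increases it and Rhox6 had the most tags. Bnipl had 0.0595, 1.47 and 1.30 CPM with ethanol and 12.5, 16.0 and 15.5 CPM with tamoxifen, and Tmem54, a membrane protein gene, had 0.178, 0.429 and 0.892 CPM against 9.57, 11.3 and 13.8 CPM. Both pairs of groups are far apart, with log2 fold changes of 3.10 ± 0.28 and 3.08 ± 0.25.

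The other large increases covered several roles. Il17re, a receptor subunit for an epithelial interleukin, rose from 0.162 to 0.245 CPM to 4.06 to 6.30 CPM. Epn3, an endocytic adaptor of epithelia, had 0, 0 and 0.416 CPM with ethanol in ascending order and at least 3.33 CPM in each tamoxifen library. Anxa9, an annexin, rose by 2.06 ± 0.25, Pdlim2, a PDZ-LIM protein gene of the actin cytoskeleton, by 1.85 ± 0.27, and Calml4, a calmodulin-like gene of the brush border, by 1.85 ± 0.29 on the log2 scale. Arhgap8, a GTPase-activating protein gene, rose by 1.84 ± 0.32 (limma adjusted p = 0.00044), a call lost when the libraries of the comparison were fitted alone. Over the 20 largest increases by the naming rule, log2 fold changes ran from 1.84 to 3.38, and in all 20 every tamoxifen library lay above every library without GRHL2-ERT. The 20 were chosen for high values in these same tamoxifen libraries, so this is no separate support. The share of all genes with this pattern was not counted. The ethanol libraries overlapped those without GRHL2-ERT for the same 20. The deposited table lists genes that reach 1 CPM in at least 6 libraries, and Aldh3b2, Il17re, Epn3 and Upk2 reached it only in tamoxifen libraries with GRHL2-ERT, so these 4 had to differ to be listed.

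**Figure D2:**
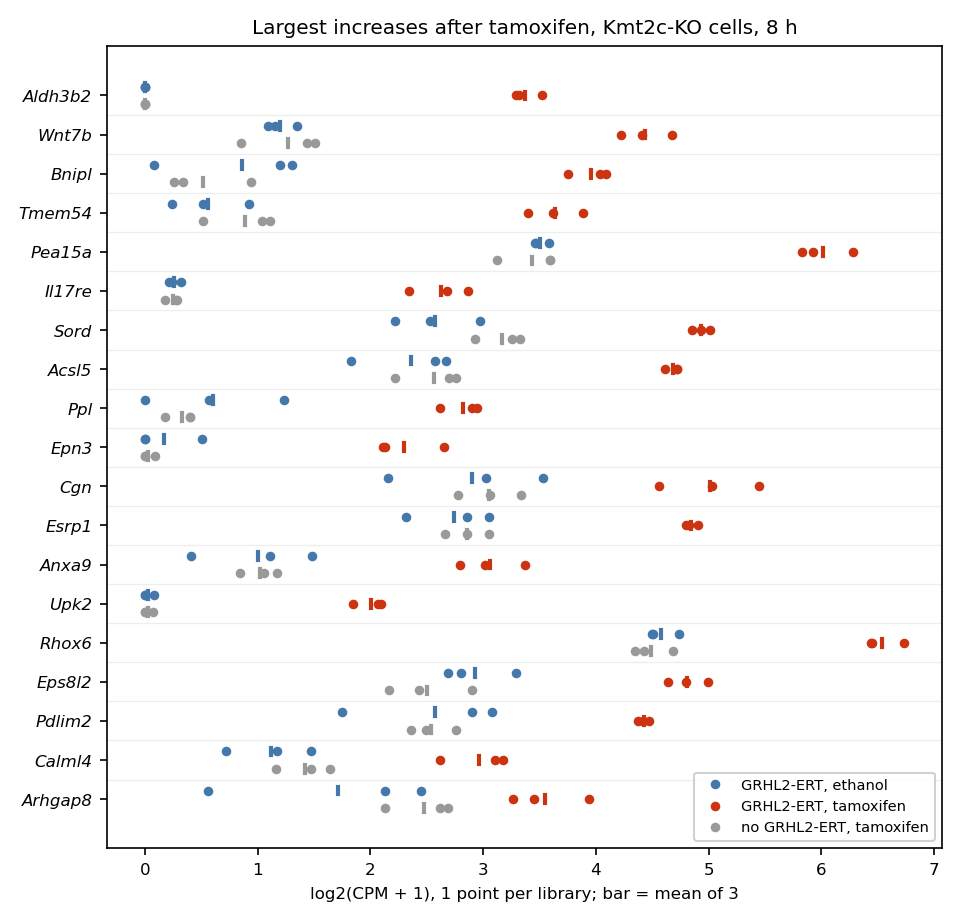
Levels of 19 of the 20 largest increases (horizontal axis, log2 of CPM + 1) in single libraries of GRHL2-ERT Kmt2c-KO cells with ethanol (blue) or tamoxifen (red) and of Kmt2c-KO cells without GRHL2-ERT with tamoxifen (grey), all at 8 h; vertical bars are means of 3 libraries. In each row the red points lie to the right of all blue and grey points, which overlap each other. The naming rule required red to lie beyond blue and left out clone names.

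Known and likely GRHL2 targets in epithelia rose in part. Of 47 listed, 40 were measured, 18 rose, 0 fell and 22 did not pass, with a median log2 fold change of 0.72 beside 0.03 over all genes. The share of all tested genes that rose was 2.92%. Epcam, an epithelial adhesion molecule, had 44.0, 55.6 and 43.4 CPM with ethanol and 86.0, 82.6 and 75.6 CPM with tamoxifen, groups that do not overlap (0.77 ± 0.15; limma adjusted p = 0.0014). Lad1, a filament-anchoring protein gene of the basement membrane zone, had 1.87 to 3.25 CPM and 6.51 to 8.14 CPM. Bspry, which was identified with an ion channel of epithelia, rose by 1.10 ± 0.28 and lost its call without ethanol replicate 2, tamoxifen replicate 2 or tamoxifen replicate 3. Cdh1, which encodes E-cadherin, a classic GRHL2 target, was already high at 240, 263 and 210 CPM with ethanol and had 234, 258 and 248 CPM with tamoxifen. These groups overlap (0.06 ± 0.13; limma adjusted p = 0.86). Ovol2 and Grhl1, transcription factor genes of the same program, had differences of 0.73 ± 0.33 and 0.46 ± 0.28 that did not pass.

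Tight junctions seal neighbouring epithelial cells through claudins and their cytoplasmic adaptors. Of 23 measured tight junction and polarity genes 6 rose, 0 fell and 17 did not pass, with a median log2 fold change of 0.26. Cldn6 (chromosome 17, 23679249 to 23682446, plus strand), a claudin of early embryonic epithelia, had 7.38, 13.8 and 9.33 CPM with ethanol and 37.1, 36.5 and 38.4 CPM with tamoxifen (1.82 ± 0.24; limma adjusted p = 1.2e-05). Cldn4 had 109, 100.04 and 112 CPM with ethanol and 175, 177 and 191 CPM with tamoxifen, and Cldn7 2.35 to 2.74 CPM and 7.83 to 10.9 CPM. None of these pairs of groups overlap, as the naming rule required. Cgn, which encodes the adaptor cingulin, rose from 3.45, 10.6 and 7.14 CPM to 31.7, 42.5 and 22.7 CPM (2.11 ± 0.35). Crb3, an apical polarity gene, rose by 1.01 ± 0.24 and Marveld3, a junction membrane protein gene, by 1.09 ± 0.26. The call of Crb3 was lost without ethanol replicate 1 and that of Marveld3 without tamoxifen replicate 2. Tjp1, Cldn3 and Ocln, further core components, had log2 fold changes of 0.19, -0.04 and -0.16 with overlapping groups. Tjp3 had 1.84 to 4.78 CPM with ethanol and 5.21 to 6.37 CPM with tamoxifen and stayed just outside the threshold (0.83 ± 0.25; limma adjusted p = 0.054).

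Promoters of genes that rose were searched for the palindromic grainyhead motif AACCGGTT and for the looser AACNNGTT, of which the former is a special case, in the 250 bases before the RefSeq start (GRCm38.p6). A palindrome reads alike on both strands. The sequences below, chosen after the values were seen, are those of a large increase (Cgn), a vesicle traffic gene (Rab25) and the 1 gene with the full motif among those that rose (Gulp1, an engulfment adaptor). They show the motif in capitals with up to 50 bases on each side, 5′ to 3′ on the strand of the gene.
Cgn: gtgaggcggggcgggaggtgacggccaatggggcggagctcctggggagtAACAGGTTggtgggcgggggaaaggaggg
Rab25: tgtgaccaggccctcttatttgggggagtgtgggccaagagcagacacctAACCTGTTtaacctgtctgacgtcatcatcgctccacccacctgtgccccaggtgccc
Gulp1: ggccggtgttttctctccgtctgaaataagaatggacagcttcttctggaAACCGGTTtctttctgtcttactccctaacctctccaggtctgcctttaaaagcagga
The windows are chr3:94786483-94786561 on the minus strand for Cgn, chr3:88548324-88548431 on the minus strand for Rab25 and chr1:44551439-44551546 on the plus strand for Gulp1. The motif begins 29 bases before the start in Cgn, 102 in Rab25 and 182 in Gulp1. Gulp1 had 0.405 to 1.19 CPM with ethanol and 3.28 to 5.14 CPM with tamoxifen (1.50 ± 0.28). Of 9448 tested genes with a promoter in the table, AACCGGTT was found in 1 of 274 that rose (0.365%), 0 of 185 that fell and 25 of 8989 not called (0.278%). A gene was counted if any of its windows matched. Over all symbols with a promoter the share was 0.137%, and over all windows 0.116%. AACNNGTT was found in 11 of the 274 (4.01%), in 6 of 106 that rose by at least 1 (5.66%), in 9 of the 185 that fell (4.86%) and in 307 not called (3.42%). Over all symbols with a promoter the share was 4.1%, and over all windows 3.64%. No test was made of these shares, and enhancers were not searched.

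Desmosomes and keratins changed in few members. Of 18 measured desmosome and adherens junction genes 2 rose and 0 fell (median 0.28). Ppl, which encodes periplakin, a linker of keratin to the membrane, had 0, 1.35 and 0.487 CPM with ethanol and 5.14, 6.70 and 6.46 CPM with tamoxifen (2.22 ± 0.26; limma adjusted p = 1.9e-06). Perp, a desmosomal tetraspan protein gene that is also a p53 target, went from 10.8, 8.63 and 12.2 CPM to 29.6, 28.0 and 31.5 CPM. Dsp, which encodes desmoplakin, had 7.14 to 8.63 CPM and 12.1 to 14.9 CPM, groups that do not overlap but did not pass (0.71 ± 0.23; limma adjusted p = 0.064). Of 13 keratin and cornified envelope genes 4 rose and 0 fell (median 0.42), and 2 rose without tamoxifen replicate 2. Tgm1, the transglutaminase that cross-links the cornified envelope, had 1.46 to 2.02 CPM and 6.05 to 9.62 CPM (1.64 ± 0.25). The simple-epithelial keratin genes Krt18 and Krt8 rose by less: Krt18 from 77.9, 68.7 and 77.9 CPM to 111, 118 and 115 CPM, and Krt8 from 41.8, 48.3 and 46.6 CPM to 63.0, 71.9 and 70.1 CPM. The call of Krt18 was lost without ethanol or tamoxifen replicate 2, and that of Krt8 without ethanol replicates 1 or 3 or tamoxifen replicates 2 or 3.

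Esrp1, the epithelial splicing regulator, was the 1 gene to rise among 15 measured epithelial transcription and splicing regulators. It had 7.32, 3.98 and 6.24 CPM with ethanol and 28.9, 26.9 and 27.3 CPM with tamoxifen (2.10 ± 0.27; limma adjusted p = 7.1e-06). In the same list Klf4 and Klf5, which also belong to the naive pluripotency network, fell. Both lost the call without several single libraries: Klf4 without ethanol replicate 1 or any 1 tamoxifen library, and Klf5 without any 1 of the 6. Among 6 measured membrane proteases and inhibitors only Prss8, the protease prostasin, rose, from 4.28, 1.59 and 3.16 CPM to 10.9, 7.43 and 7.98 CPM. Its substrate partner St14 (matriptase) had 7.38 to 9.81 CPM and 11.6 to 13.1 CPM and did not pass, and the inhibitor Spint1 had overlapping groups (0.09 ± 0.12).

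Membrane trafficking genes moved upward in 7 of 19 measured members and downward in 1, with a median of 0.35. Rab11a, the GTPase of recycling endosomes, had 52.4, 53.02 and 66.2 CPM with ethanol and 121, 123 and 123 CPM with tamoxifen (1.10 ± 0.17; limma adjusted p = 0.00015). Vamp8, a SNARE of endosomes and secretory granules, had 13.9, 9.12 and 9.002 CPM and 27.5, 31.8 and 29.6 CPM. Rab3d, a GTPase of secretory vesicles, rose from 1.90 to 2.74 CPM to 7.30 to 11.3 CPM. The treatment groups of all 3 genes are separate, as the naming rule required. Rab17, a GTPase of transcytosis in polarized cells, rose by 1.12 ± 0.24, Rab15 by 1.12 ± 0.25, Mal2, an apical transcytosis protein gene, by 1.17 ± 0.26, and Rab25, an epithelial relative of Rab11a, by 1.02 ± 0.28. The call of Rab15 was lost without tamoxifen replicate 2, that of Mal2 without ethanol replicate 1 and that of Rab25 without any 1 library other than ethanol replicate 2. Rab26, a GTPase of secretory granules, fell from 3.51, 2.76 and 2.68 CPM to 0.547, 0.0663 and 0.554 CPM, while cells without GRHL2-ERT had 0.394 to 2.01 CPM.

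Regulators of the actin cytoskeleton and of its small GTPases rose in 5 of 25 measured members and fell in 0 (median 0.18). Eps8l2, an actin-capping protein gene of the EPS8 family, had 8.80, 5.45 and 6.00 CPM with ethanol and 23.9, 31.0 and 26.9 CPM with tamoxifen (1.88 ± 0.23; limma adjusted p = 2.6e-06). Rhou, an atypical small GTPase gene, had 10.5 to 11.7 CPM and 23.3 to 29.3 CPM. Myl9, a myosin light chain gene, and the exchange factor genes Arhgef16 and Arhgef5 rose by 0.98 ± 0.26, 0.94 ± 0.24 and 1.02 ± 0.28. The call of Myl9 was lost without ethanol replicates 1 or 2 or tamoxifen replicates 2 or 3, that of Arhgef16 without ethanol replicate 1 or tamoxifen replicates 1 or 2, and that of Arhgef5 without ethanol replicate 3 or any 1 tamoxifen library. Without tamoxifen replicate 2 the count was 2 of 25. The 17 measured genes of the YAP and TEAD list gave no call, with a median of 0.26. Beside targets, that list holds the factors themselves (Yap1, Wwtr1 and Tead1 to Tead4) and regulators such as Nf2 and Amot. Ctgf, a target in the list, had 0.833 to 3.67 CPM with ethanol and 9.67, 8.82 and 1.06 CPM with tamoxifen, so 1 tamoxifen library was as low as ethanol.

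In the WNT pathway 2 of 35 measured genes rose and 2 fell, beside 2.92% and 2.04% of all tested genes. The other 31 did not pass, and the median was 0.06 beside 0.03 over all genes. So few calls are no result about the pathway. Beside Wnt7b, Wnt4 rose from 2.56, 1.96 and 4.78 CPM to 10.2, 9.15 and 12.3 CPM (1.54 ± 0.25; limma adjusted p = 0.00021). Sfrp1, a secreted WNT antagonist, had 72.6, 71.1 and 69.1 CPM with ethanol and 30.8, 30.6 and 36.0 CPM with tamoxifen (-1.11 ± 0.16). Cells without GRHL2-ERT had 40.9 to 48.7 CPM of Sfrp1, between the groups. Tcf7l1, a repressor at WNT target genes, fell from 128, 152 and 137 CPM to 94.3, 103 and 103 CPM. The feedback target Axin2 had 6.24 to 8.45 CPM and 8.04 to 8.54 CPM, which overlap, and Lef1 had a difference of -0.72 ± 0.29 that did not pass. The medium held a GSK3 inhibitor in both groups, which activates the pathway below the receptors.

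In the NODAL, activin and BMP list 2 of 26 rose and 2 fell, beside 2.92% and 2.04% of all tested genes, with a median of -0.01. So few calls, in both directions, are no result about these pathways. Lefty2 (chromosome 1, 180893108 to 180899103, plus strand), a secreted NODAL inhibitor and target, had 203, 225 and 163 CPM with ethanol and 93.5, 91.1 and 97.2 CPM with tamoxifen (-1.05 ± 0.11; limma adjusted p = 1.5e-07). Lefty1 fell from 109, 106 and 121 CPM to 65.8, 64.3 and 81.9 CPM, a call lost without ethanol replicate 3, tamoxifen replicate 1 or tamoxifen replicate 2. Nodal itself had 59.5 to 62.1 CPM and 50.3 to 56.8 CPM and did not pass (-0.21 ± 0.11). Id2, a BMP target that also marks trophoblast, rose by 0.56 ± 0.11. Smad3, a transducer of NODAL and activin signals, rose by 0.84 ± 0.21 and lost the call without ethanol replicate 3 or tamoxifen replicate 2. Apela, which is in no list and was named for the difference between its 16 h and 8 h responses, encodes a secreted peptide ligand of the apelin receptor. It fell from 180, 151 and 156 CPM to 75.5, 78.4 and 77.5 CPM.

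Among 19 measured FGF and MAPK feedback genes 3 fell and 1 rose (median -0.27), in medium that held a MEK inhibitor. Over all tested genes 2.04% fell and 2.92% rose. Etv1 and Etv5, ETS factors that FGF signalling induces, had log2 fold changes of -1.27 ± 0.19 and -0.59 ± 0.13. Etv5 went from 137, 137 and 118 CPM to 82.3, 86.1 and 91.6 CPM. Ier3, an immediate-early gene, rose from 7.62 to 8.86 CPM to 13.6 to 15.1 CPM. The third decrease was Klf5, described above.

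Lipid genes rose in small numbers. Of 28 measured cholesterol synthesis genes and SREBP targets 6 rose and 0 fell, with a median of 0.32. Msmo1, a sterol oxidase gene, had 65.4, 66.4 and 60.6 CPM with ethanol and 99.9, 98.8 and 104 CPM with tamoxifen (0.65 ± 0.11; limma adjusted p = 0.00026). Sc5d, a desaturase gene of the same path, had 5.84 to 9.06 CPM and 15.2 to 18.8 CPM (1.12 ± 0.19). These 2 kept their calls in every alternative fit, whereas Fdps, Cyp51, Tm7sf2 and Stard4 lost theirs without 3 or more of the single libraries, and 2 of 28 rose without ethanol replicate 1, tamoxifen replicate 1 or tamoxifen replicate 3. The 3 called without tamoxifen replicate 2 were again fewer than the 6. In the fatty acid list 3 of 31 rose and 0 fell (median 0.16), beside 2.92% and 2.04% of all tested genes. Acsl5, which activates long-chain fatty acids, went from 2.56, 4.96 and 5.35 CPM to 25.3, 25.3 and 23.5 CPM (2.33 ± 0.21), and the elongase genes Elovl1 and Elovl6 rose by 1.19 ± 0.23 and 0.62 ± 0.13.

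Aldehyde, polyol and sugar metabolism had 2 increases and 1 decrease among 20 measured genes, beside 2.92% and 2.04% of all tested genes. Sord, the sorbitol dehydrogenase gene, had 4.76, 6.86 and 3.65 CPM with ethanol and 31.2, 29.5 and 27.9 CPM with tamoxifen (2.36 ± 0.19; limma adjusted p = 2e-09). Pfkp, a phosphofructokinase gene of glycolysis, fell from 64.7, 62.6 and 62.9 CPM to 33.7, 29.6 and 35.8 CPM. Cells without GRHL2-ERT had 35.2 to 47.2 CPM of Pfkp, which overlaps tamoxifen and not ethanol. Of 21 measured genes of the integrated stress response and serine synthesis 1 rose, Phgdh (0.46 ± 0.13), and lost its call without ethanol replicates 1 or 3 or tamoxifen replicates 2 or 3.

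Genes listed for trophoblast rose in 9 of 20 measured members and fell in 0, with a median of 0.57, and in 6 without tamoxifen replicate 2. The 9 were not the defining factors of that lineage: Cdx2, Elf5 and Hand1 were not analysed here, Eomes, Gata3 and Ascl2 together had 16.5 to 19.8 CPM with tamoxifen against 21.1 to 26.9 CPM with ethanol, and Gata3 had a difference of 0.14 ± 0.21. Rhox6, a homeobox gene of the placenta and germ line, had 21.7, 21.6 and 25.7 CPM with ethanol and 85.9, 105 and 86.5 CPM with tamoxifen (1.96 ± 0.16; limma adjusted p = 3.7e-09). Its neighbour Rhox9 had 6.00, 11.3 and 11.1 CPM and 25.1, 24.9 and 21.7 CPM. How tags shared by such close relatives were assigned is not given in the sources used here. Dlx3, a homeobox gene of placenta and epidermis, had 0.0595, 0 and 0.405 CPM with ethanol and 2.57, 4.84 and 1.43 CPM with tamoxifen. Esx1, a placental homeobox gene, rose by 1.08 ± 0.24, Lgals3, a galectin gene, by 0.80 ± 0.16, and Gata2 by 1.35 ± 0.30, the last not called without ethanol replicate 1 or tamoxifen replicate 2. Krt8, Krt18 and Id2 complete the 9 and belong to other lists as well.

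By the naming rule, which left out clone names, the largest decreases were smaller than the largest increases. A gene with a clone name, 2300002M23Rik, had the largest decrease of all called genes, by 1.8048 on the log2 scale. Tcl1 (chromosome 12, 105216750 to 105222793, minus strand), a coactivator of AKT kinases in the naive network, had 18.0, 21.6 and 15.7 CPM with ethanol and 6.34, 4.38 and 4.43 CPM with tamoxifen (-1.69 ± 0.18; limma adjusted p = 3.4e-07). Runx1t1, a transcriptional corepressor gene, had 24.0, 24.5 and 20.6 CPM and 8.85, 7.10 and 8.999 CPM. Trh, the thyrotropin-releasing hormone gene, had 10.2 to 17.4 CPM and 3.91 to 6.07 CPM, and cells without GRHL2-ERT had more than either, 22.9 to 24.2 CPM. The treatment groups overlap for none of these, as the naming rule required. Smarcd3, a subunit gene of the BAF chromatin remodelling complex, fell by 1.45 ± 0.32 on the log2 scale, Rap1gap, a GTPase-activating protein gene for RAP1, by 1.30 ± 0.22, Myo1f, an unconventional myosin gene, by 1.35 ± 0.23, and Bach2, a transcriptional repressor gene, by 1.26 ± 0.26. The call of Smarcd3 was lost without replicate 3 of either treatment. Rassf4, Wdr93, She, Platr26 and Frat1 also fell, by 1.25 to 1.39 on the log2 scale. Of these, Wdr93 was not called without ethanol replicate 1, tamoxifen replicate 2 or tamoxifen replicate 3, and Frat1 not without tamoxifen replicate 2. For 11 of the 14 named decreases every tamoxifen library lay below every library without GRHL2-ERT, in the same tamoxifen libraries that the genes were chosen for. The exceptions were Rab26, Wdr93 and Frat1. Ethanol libraries did not overlap those without GRHL2-ERT for Rab26, Myo1f, Trh, Platr26 and Frat1. These groups differ in the line and in the treatment, solvent or tamoxifen, which the design cannot tell apart. No test of this difference and no share over all genes is given here.

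**Figure D3:**
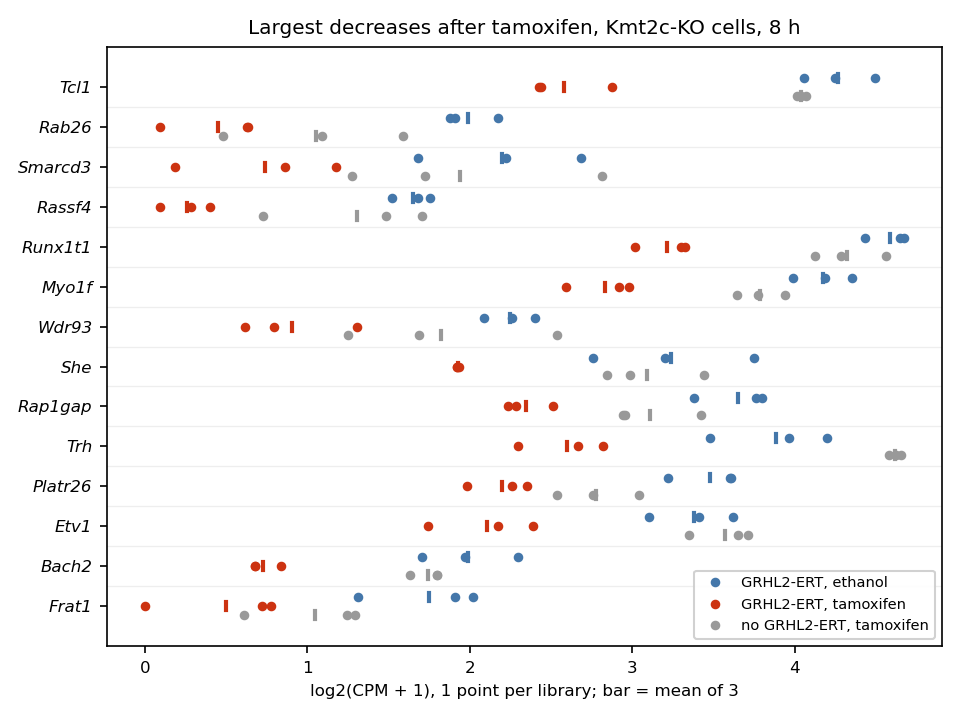
Levels of the 14 largest decreases (horizontal axis, log2 of CPM + 1) in single libraries of GRHL2-ERT Kmt2c-KO cells with ethanol (blue) or tamoxifen (red) and of Kmt2c-KO cells without GRHL2-ERT with tamoxifen (grey), all at 8 h; vertical bars are means of 3 libraries. Red points lie to the left of all blue points in every row, as the naming rule required, and grey points reach into the red range for Rab26, Wdr93 and Frat1. The rule also left out clone names.

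Naive pluripotency genes fell in 6 of 26 measured members and rose in 0, with a median of -0.25 beside 0.03 over all genes and 2.04% of all genes falling. Sox2, a core pluripotency factor, had 303, 299 and 278 CPM with ethanol and 197, 195 and 212 CPM with tamoxifen (-0.54 ± 0.10; limma adjusted p = 0.00099), against 292 to 313 CPM without the transgene. Zfp42 (Rex1) had 839, 701 and 771 CPM and 504, 491 and 533 CPM, a call lost without ethanol replicate 1 or tamoxifen replicate 2. Dppa4 and Klf4 both had log2 fold changes of -0.47 ± 0.13, and Klf5 one of -0.37 ± 0.11. Dppa4 was not called with median-of-ratios scaling or without ethanol replicates 1 or 3 or tamoxifen replicates 1 or 2. The number of members that fell was 2 without ethanol replicate 1, 2 without tamoxifen replicate 2 and 3 without tamoxifen replicate 1. Pou5f1 (Oct4) had 929, 579 and 763 CPM with ethanol and 476, 507 and 569 CPM with tamoxifen, groups that do not overlap but did not pass (-0.53 ± 0.30; limma adjusted p = 0.37). Nanog (0.17 ± 0.25) and Esrrb (-0.34 ± 0.17) had overlapping groups.

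The formative and primed list fell as well, in 7 of 19 members with 2 increases and a median of -0.44. Utf1 (chromosome 7, 139943789 to 139945112, plus strand), a chromatin-bound pluripotency factor, had 58.2, 51.9 and 59.3 CPM with ethanol and 22.6, 24.6 and 25.2 CPM with tamoxifen (-1.19 ± 0.13; limma adjusted p = 2.2e-07). Zic2 and Sall2, zinc finger factors, fell by 0.80 ± 0.21 and 0.93 ± 0.25 on the log2 scale. Zic2 was not called without ethanol replicates 2 or 3 or tamoxifen replicates 1 or 3, and Sall2 not without ethanol replicates 1 or 3 or tamoxifen replicates 2 or 3. Car4, a carbonic anhydrase gene, rose from 4.59 to 6.43 CPM to 14.6 to 20.6 CPM. Otx2, a homeobox factor of the formative state, rose from 7.56, 10.4 and 10.6 CPM to 16.5, 18.2 and 14.1 CPM and was not called without ethanol replicate 1 or tamoxifen replicate 2.

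Among 14 measured genes of DNA methylation 4 fell and 0 rose (median -0.28), beside 2.04% and 2.92% of all tested genes. Dnmt3l, the cofactor of the de novo methyltransferases, had 153, 121 and 141 CPM with ethanol and 66.4, 72.6 and 79.0 CPM with tamoxifen (-0.91 ± 0.14; limma adjusted p = 0.00015). Dnmt3a, a de novo methyltransferase gene, had 118, 117 and 115 CPM and 86.0, 83.8 and 83.3 CPM. Trim28, the corepressor of zinc finger repressors, had 459 to 550 CPM and 331 to 392 CPM, and the groups of all 3 genes are separate. Zfp57, which protects imprints, fell by 0.96 ± 0.26 on the log2 scale and lost its call without ethanol replicates 1 or 2 or tamoxifen replicate 2. Dnmt3b moved the other way without passing, at 54.0 to 62.0 CPM and 72.2 to 78.6 CPM (0.37 ± 0.14; limma adjusted p = 0.16). Dnmt1 had a difference of -0.29 ± 0.14, with overlapping groups. Of 18 measured COMPASS subunit genes, the family of complexes to which KMT2C and KMT2D belong, 1 fell, Psip1 (-0.31 ± 0.08), a call lost with median-of-ratios scaling and without ethanol replicates 1 or 3 or tamoxifen replicates 2 or 3.

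Mesenchymal genes fell in 3 of 19 members and rose in 0 (median -0.21), a count that no left-out library changed. Zeb1, a repressor of epithelial genes that GRHL2 is known to oppose, had 20.05, 18.0 and 20.5 CPM with ethanol and 6.23, 10.9 and 6.88 CPM with tamoxifen (-1.22 ± 0.17; limma adjusted p = 3.4e-05). Cdh2, which encodes N-cadherin, had 4.40, 6.55 and 3.65 CPM and 2.02, 1.13 and 1.66 CPM. Sparc, a matrix glycoprotein gene, fell from 524, 487 and 439 CPM to 281, 303 and 315 CPM. The groups of all 3 are separate, while Vim had overlapping groups (-0.34 ± 0.17). In the neuroectoderm list 2 of 11 fell: Ncam1, a neural adhesion molecule gene, from 49.8, 62.8 and 47.8 CPM to 24.9, 25.9 and 25.0 CPM (-1.04 ± 0.12), and Sox11 by 0.71 ± 0.15 on the log2 scale.

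Lists for other states and for tamoxifen itself gave few calls. The 11 measured estrogen receptor targets had 0 calls and a median of 0.02, with Greb1 at 0.429 to 0.730 CPM in ethanol and 0.0663 to 0.820 CPM in tamoxifen. The lists for the Zscan4-positive state (6 measured), mesoderm (6) and feeder fibroblasts (5) had 0 calls too. Across these 4 lists and the YAP list 0 of 45 genes were called by limma, or by limma with voom weights, beside 4.95% of all tested genes, a share at which 0 of 45 is not a result about these lists. An unadjusted p under 0.05 (limma) was reached by 12 of the 45, 7 of them in the YAP and TEAD list, beside 2219 of all 12414. Of 13 primitive endoderm genes 2 rose, the endocytic receptor gene Lrp2 (0.84 ± 0.20) and the laminin gene Lamb1 (0.59 ± 0.16), and neither was called without ethanol replicate 3. Gata4, Gata6, Foxa2, Pdgfra and Dab2, markers of that lineage, summed to 3.46 to 5.77 CPM per tamoxifen library. Among 20 p53 targets Perp and Ccng1 rose (the latter by 0.44 ± 0.11, not called without ethanol replicate 1 or tamoxifen replicates 1 or 2), and Pmaip1, which encodes the apoptosis inducer NOXA, fell by 0.86 ± 0.18 on the log2 scale. Cdkn1a had 189 to 201 CPM and 180 to 227 CPM. Over all tested genes 2.92% rose and 2.04% fell.

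Other settings ended further calls of genes named above. With the Rn45s level as a covariate the decreases of Smarcd3, Rassf4, Wdr93, She, Platr26, Frat1, Klf4, Klf5, Zfp42, Dppa4, Etv5, Sox11, Psip1, Zfp57 and Sall2 were not called, and neither were the increases of Crb3, Krt8, Mal2, Rab25, Rab15, Arhgef16, Arhgef5, Gulp1, Cyp51, Tm7sf2, Elovl6, Smad3, Lgals3, Gata2, Lrp2, Lamb1, Ccng1 and Phgdh. Myo1f, Wdr93, Cldn7, Crb3, Marveld3, Pmaip1, Arhgef16, Arhgef5, Rab25, Bspry and Sall2 were not called with a pseudocount of 0.1 CPM. The libraries of the comparison alone gave no call for Arhgap8, Klf5, Tm7sf2 or Stard4, voom weights on recovered reads none for Marveld3 or Rab25, and median-of-ratios scaling or totals without Rn45s none for Cyp51 or Stard4. Tm7sf2 was not called with a pseudocount of 5 CPM either.

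**Figure D4:**
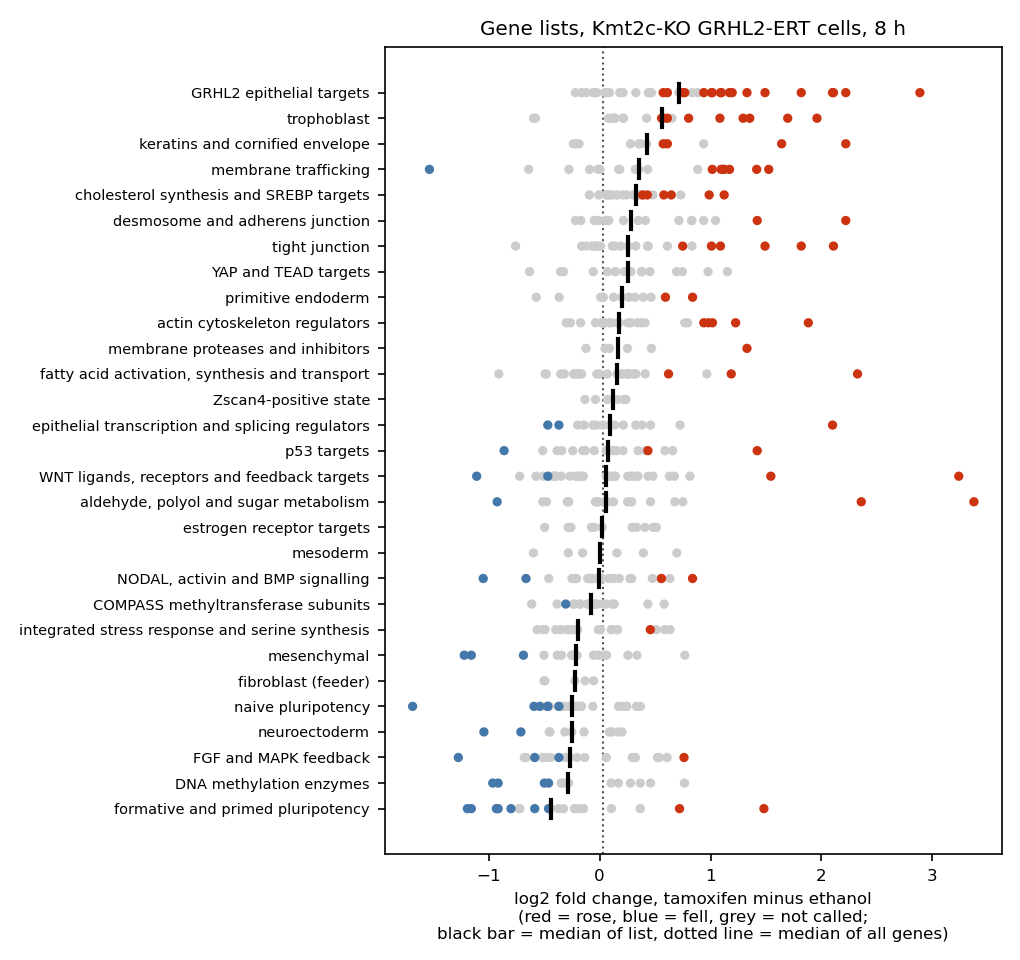
Log2 fold change between tamoxifen and ethanol libraries (horizontal axis, log2 units) of every measured member of the 29 gene lists, 1 point per gene; red points rose, blue points fell and grey points were not called, the black bar is the median of a list and the dotted line the median of all genes (0.03). GRHL2 epithelial targets have the highest median (0.72) and the formative and primed list the lowest (-0.44).

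The same tamoxifen libraries were also set against tamoxifen-treated cells without GRHL2-ERT, a comparison that shares those 3 libraries and differs in the line as well as in nuclear GRHL2. It called 505 genes (4.07%), 332 higher (2.67%) and 173 lower (1.39%) with the transgene. In that comparison Wnt7b differed by 3.17, Cldn6 by 1.65, Cldn4 by 1.24 and Rab11a by 1.02 on the log2 scale, beside 3.24, 1.82, 0.75 and 1.10 against ethanol. Among decreases Tcl1 differed by -1.46, Utf1 by -1.42 and Trh by -2.02, beside -1.69, -1.19 and -1.29. Sfrp1 (-0.44; limma adjusted p = 0.14), Pfkp (-0.33; 0.30), Sc5d (0.48; 0.18) and Dnmt3a (-0.15; 0.59) passed against ethanol and did not pass here. The difference between the comparisons was not tested, since they share libraries.

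Separate libraries of the line at 16 h entered the choice of the 362 and 253 genes only through the shared spread and the filters on level. Aldh3b2, Il17re, Epn3 and Upk2 had to reach 1 CPM in tamoxifen libraries beyond the 3 at 8 h to be listed. Their responses at 16 h or in the double-knockout line were thus partly fixed in advance. The 16 h libraries gave the following values. Grhl2 tags stood at 64.6 to 90.2 CPM in those 6 libraries, below every 8 h library of the line, so time and transgene level cannot be told apart. Tamoxifen called 37 genes there (0.298%), 36 higher (0.29%) and 1 lower (0.00806%). Of the 362 genes that rose at 8 h, 314 (86.7%) had a log2 fold change above 0 at 16 h, beside 44.3% of all tested genes, with a median of 0.31, and 33 were called. Of the 253 that fell, 219 (86.6%) were below 0 at 16 h, beside 55.6% of all tested genes, with a median of -0.21, and 0 were called. The median of all tested genes at 16 h was -0.02. Tmem54 had 2.60 ± 0.25, Acsl5 1.83 ± 0.21, Wnt7b 1.65 ± 0.24, Perp 1.16 ± 0.16 and Cldn6 1.09 ± 0.24 at 16 h, all called. Otx2 had 1.01 ± 0.16 at 16 h (limma adjusted p = 0.00078) beside 0.72 ± 0.16 at 8 h. Crb3 (-0.04 ± 0.24) and Gata2 (-0.05 ± 0.30) were near 0 at 16 h. The difference of the 2 responses passed for 8 genes (0.0644%), 2 higher (0.0161%) and 6 lower (0.0483%) at 16 h, a count that ran from 1 to 6 when single libraries were left out.

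In the double-knockout line at 8 h, whose 6 libraries are separate too but entered the same filters, tamoxifen called 12 genes (0.0967%), 8 higher (0.0644%) and 4 lower (0.0322%). Of the 362 genes 227 (62.7%) were above 0 there, beside 41.4% of all tested genes, and 6 were called. Of the 253 genes 145 (57.3%) were below 0, beside 58.4% of all tested genes, with a median of -0.04, and 4 were called. Tmem54 had 1.80 in that line, Anxa9 1.44, Ppl 1.32, Epcam 1.26 and Cldn4 0.92, all called. Acsl5 had 0.00, Perp -0.01 and Rab11a -0.16 beside 2.33, 1.42 and 1.10 in the Kmt2c-KO line. Among decreases Ncam1 had -0.74 and Lefty2 -0.65, both called. The difference of the responses, double-knockout minus Kmt2c-KO, passed for 177 genes (1.43%), 65 higher (0.524%) and 112 lower (0.902%), and this count ran from 59 to 3090 when single libraries were left out. It was 59 without tamoxifen replicate 2 of the Kmt2c-KO line and 3090 without tamoxifen replicate 3 of the double-knockout line. Grhl2 tags ran from 32.4 to 125 CPM over these 6 libraries, below every 8 h library of the Kmt2c-KO line with GRHL2-ERT, so Kmt2d and the transgene level cannot be told apart. Esr1 had 12.9, 18.5 and 10.2 CPM in the ethanol libraries of that line and 6.91, 1.02 and 15.8 CPM in those labelled tamoxifen. Replicate 2 of the latter thus lay below the cells without GRHL2-ERT for Esr1 and was the highest of the 6 for Grhl2, and without it the difference between lines was called for 100 genes.

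**Figure D5:**
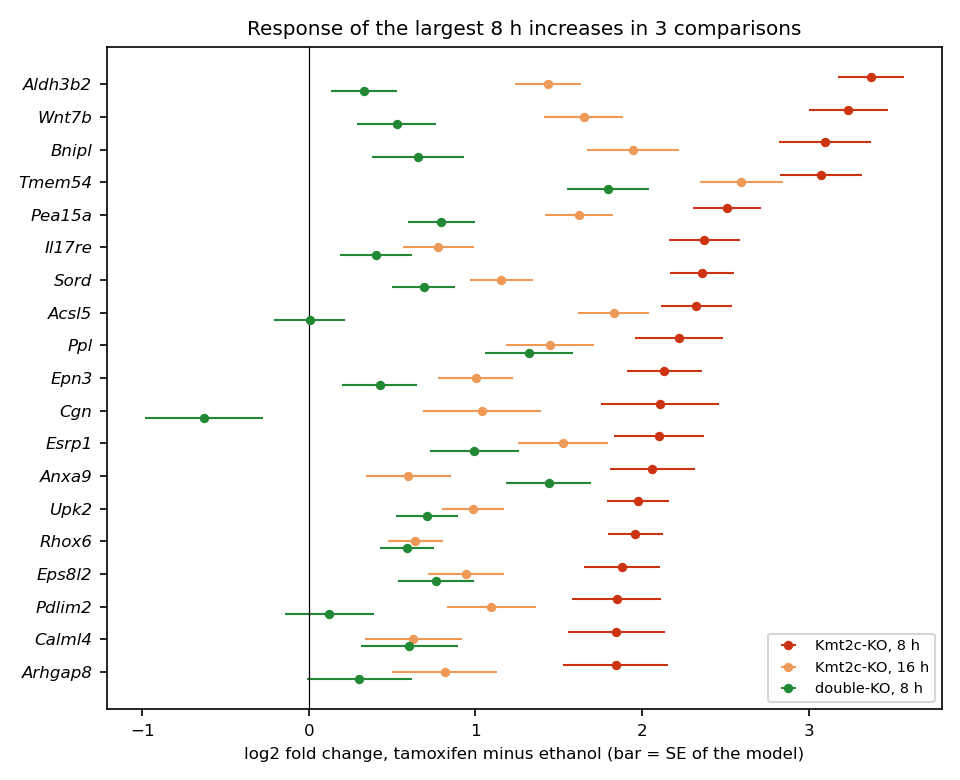
Log2 fold change between tamoxifen and ethanol (horizontal axis, log2 units; bars are the SE of the model) of 19 of the 20 largest 8 h increases in Kmt2c-KO cells at 8 h (red), Kmt2c-KO cells at 16 h (orange) and double-knockout cells at 8 h (green), all with GRHL2-ERT. The genes were chosen by the naming rule for their red values. All orange points lie above 0, and Cgn is the 1 gene with a green point below 0. Aldh3b2, Il17re, Epn3 and Upk2 also had to reach 1 CPM in tamoxifen libraries other than the red ones to be listed.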

How the data were processed

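RNA was measured by QuantSeq 3' tag sequencing from a single end, per the labels' protocols. Salmon, DESeq2 1.34.0 and the mm10 build appear in the submitters' processing notes, without the step of each; the filters applied are not given in the sources used here. The deposited values, for 12428 genes in 30 libraries, were log2 of CPM plus an offset of 0.125, as the values show. After conversion back to CPM, limma 3.58.1 (R 4.3.3) was fitted to log2(CPM + 1): 10 group means over all 30 libraries, trended and robust moderation, 20 residual degrees of freedom and Benjamini-Hochberg adjustment over 12414 genes (14 with no group mean of 1 CPM were removed), called at 0.05, two-sided. The script was tested on simulated data.

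Reads were recovered from the spacing of low values, of which 94.7% to 97.6% were whole within 0.05 reads. Depth ran from 8.86 to 22.0 M reads, and no 2 libraries of a group agreed within sampling noise. Column names that shorten the line names were assigned by treatment, since the labels give ethanol to the GRHL2-ERT line alone among the Kmt2c-KO lines. GENCODE release 21 placed 96.1% of symbols on mm10.

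The rule named the 20 largest increases and 14 largest decreases among called genes with separate groups, a mean of at least 1 CPM in the higher group and a symbol that is no clone name, up to 6 called members per list with the smallest adjusted p, and up to 6 genes per difference of responses; further list members and Gulp1 were named after their values were seen. The comparison, the 29 lists and the rule were chosen with earlier results of these data known. Results for 1 gene picked by the rule and 1 list member are not reported here.

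The alternatives were pseudocounts of 0.1 and 5 CPM, no filter or a filter at 5 CPM, the libraries of a comparison alone, a replicate block, array weights, median-of-ratios scaling, totals without Rn45s, a log2 fold change of at least 1, and each library left out. Added after seeing the data were a fit without the double-knockout tamoxifen libraries at 8 h, voom weights on recovered reads and Rn45s as a covariate.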

Additional observations from a re-analysis of the deposited data

Results flagged for a closer look

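The 12 genes here were picked by the rule because a test of the difference between 2 tamoxifen responses passed (limma, Benjamini-Hochberg adjusted p under 0.05). Between lines at 8 h, the double-knockout response minus the Kmt2c-KO response on the log2 scale was -3.04 for Aldh3b2, -2.71 for Wnt7b, -2.32 for Acsl5, -1.43 for Perp, -1.17 for Klhl13, which encodes a substrate adaptor of a ubiquitin ligase, and 1.33 for Utf1. Klhl13 had 107, 80.2 and 91.2 CPM with ethanol and 211, 212 and 231 CPM with tamoxifen in Kmt2c-KO cells at 8 h. Between times, the 16 h response minus the 8 h response of Kmt2c-KO cells was -1.94 for Aldh3b2, -1.71 for Pmp22, -1.32 for Rhox6, -0.90 for Klhl13, 0.82 for Apela and 0.81 for Lefty2. Apela and Lefty2 both lost the call without, for example, ethanol replicate 1 or tamoxifen replicates 2 or 3 at 8 h. With a replicate block within each line and time 0 differences between times were called. Pmp22, a membrane protein gene of myelin and epithelia, had 4.94, 5.88 and 9.73 CPM with ethanol and 14.1, 18.1 and 18.8 CPM with tamoxifen at 8 h, and its log2 fold change at 16 h was -0.48 ± 0.20. The double-knockout tamoxifen libraries at 8 h correlated least with each other. Without replicate 1, 2 or 3 of them the 177 differences between lines became 458, 100 and 3090, and the 6 genes named first kept their direction and call each time. With the libraries of the comparison alone only 5 genes were called (1 higher, 4 lower), so not all 6 kept their call there. Array weights left 9 calls, a replicate block within each line and time 12, and Rn45s as a covariate 17.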

How the results depend on the processing

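Alternatives for single genes were run for 114 genes of the 8 h response and the 12 differences of responses, and none reversed; gene values of the other comparisons had none. Over the 114 genes and 19 alternative fits, 1943 of 2151 values kept their direction and side of the threshold, 205 were no longer called and 3 became called. The count of 615 changed by over 1.5 times with array weights (1116), without the double-knockout tamoxifen libraries at 8 h (1355), with a log2 fold change of at least 1 (204) and, among left-out libraries (320 to 604), without tamoxifen replicate 2. With Rn45s as a covariate 446 genes were called, 273 of them among the 615. Against cells without GRHL2-ERT the count of 505 became 1044 with the libraries of the comparison alone, 1254 with array weights, 819 without the double-knockout tamoxifen libraries and 295 to 351 with a library left out. The 177 differences between lines became 294 with a pseudocount of 5 CPM, 5 with the libraries of the comparison alone, 9 with array weights, 17 with Rn45s as a covariate and 59 to 3090 with a library left out. The 8 differences between times (2 higher, 6 lower) became 5 and 28 with pseudocounts of 0.1 and 5 CPM, 26 with the libraries of the comparison alone (16 higher, 10 lower), 89 with array weights, 24 without the double-knockout tamoxifen libraries, 4 with voom weights (3 higher, 1 lower), 14 with Rn45s as a covariate (6 higher, 8 lower) and 1 to 6 with a library left out; median-of-ratios scaling gave 10 (4 higher, 6 lower). The cause of these changes was not tested. The replicate numbers did not pair the libraries: same-numbered ethanol and tamoxifen libraries correlated at -0.12, 0.14 and -0.05 after group means were removed. A replicate block within each line and time called 299 genes (295 of the 615), 12 differences between lines and 0 between times, and a block over all libraries called 591; for the comparison with cells without GRHL2-ERT the former could not be fitted. The count model on recovered reads was not run because the deposited values are log2. Depth limited genes near 0: 3 reads in a library of the comparison stood for up to 0.243 CPM.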
